A study of Mus musculus with 32 samples.

Results

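Respiratory complex I is the large enzyme of the inner mitochondrial membrane that oxidises NADH, passes the electrons to ubiquinone and pumps protons. Its nuclear genes carry symbols that start with Nduf, and they were followed here in the frontal cortex of mice that received the gut microbiota of a primate. All rows of the gene count table whose symbol starts with Nduf were taken, except 2 rows ending in -ps, Ndufab1-ps and Ndufb1-ps. RefSeq lists Ndufb1-ps as a synonym of the protein-coding mouse gene Ndufb1, so that row may hold the subunit gene; it was not analysed here. This gave 48 genes of 23958 in the table, made up of 40 subunit genes and 8 genes for assembly factors, the Ndufaf genes. A filter on low counts kept 45 of the 48 among 12651 genes, namely 37 subunit genes and all 8 Ndufaf genes. Ndufa4l2 did not pass it, with 177 counts over all mice, nor did Ndufs6b with 3 counts and Ndufa11b with 1.

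The 32 mice had been inoculated with the microbiota of humans (12 mice), squirrel monkeys, Saimiri boliviensis (8 mice), or macaques, Macaca mulatta (12 mice). The study asks, by its title, about changes in mouse neurodevelopment, and all groups share the inoculation, so no group without a primate microbiota was compared. No source used here gives strain, age, sex, the number of donors or the microbial state of the mice before inoculation. RNA from the infralimbic and prelimbic frontal cortex was read by TagSeq, which counts short reads near the 3′ end of transcripts. Batches A (4 mice) and B (8 mice) held the human group, C and D (4 mice each) the squirrel monkey group, and E (5 mice) and F (7 mice) the macaque group. Donor species and batch therefore cannot be told apart in any comparison between donor groups, and p-values measure the spread between mice. Total counts per mouse were 1204598 to 2089308 (human), 1193113 to 1588716 (squirrel monkey) and 1035036 to 1673882 (macaque). All 10 neuron markers listed had counts in all 32 mice.

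Complex I is built as an arm in the matrix and an arm in the membrane. The matrix arm consists of the N module, which binds NADH and holds the flavin and several iron-sulphur clusters, and the Q module, which hands electrons to ubiquinone. The membrane arm pumps protons. Its central subunits are encoded by mitochondrial DNA and were not analysed here. Many nuclear subunits are accessory proteins that surround the catalytic core, and assembly factors help to build the enzyme without remaining in it. Neurons of the cortex rely on this pathway for most of their ATP.

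In mice with human rather than macaque microbiota, 5 complex I genes rose, all of them for accessory subunits, and none of the 45 tested fell. They were Ndufb4, Ndufs5, Ndufa12, Ndufa7 and Ndufab1. Of the 37 subunit genes, 5 were higher and 0 lower at an adjusted p under 0.05 in edgeR's quasi-likelihood test, against 4.47% of all 12651 genes higher and 3.54% lower (8.01% in either direction). The 5 genes lie in different parts of the enzyme: 2 of the 5 belong to the N module, 1 to the proximal and 1 to the distal membrane arm, and Ndufab1 is the acyl carrier protein found in both arms. The 7 catalytic core subunits gave 0 calls, and so did the 6 Q module genes and the 8 Ndufaf genes. The log2 fold changes of the other 32 subunit genes lay between -0.15 and 0.18, with standard errors (SE) of 0.055 to 0.098. Over the 45 genes the median log2 fold change was 0.076, against -0.001 over all genes tested. Between batches B and A of the human group, the median over the same 45 genes was larger, at 0.15.

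Ndufb4 encodes an accessory subunit of the distal membrane arm, and the gene lies on chromosome 16. Its level in CPM, the count of a gene relative to its library total after scaling between libraries, was 30.5 at the lowest, 64.0 at the median and 78.6 at the highest among the 12 human mice. In the 12 macaque mice the corresponding levels were 12.7, 27.1 and 34.98 CPM. All 12 human mice lay above the macaque median and 10 lay above the highest macaque mouse, so the overlap came from 2 human mice, both of batch B. Mean levels were 57.3 ± 15.7 CPM (SD, n = 12) and 25.6 ± 5.9 CPM (SD, n = 12), a 2.24-fold difference (log2 fold change 1.16, SE 0.16, edgeR adjusted p = 2.8e-06). The macaque levels rested on 13 to 50 counts per mouse and the human levels on 40 to 155.

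Ndufs5 encodes a small accessory subunit on the intermembrane-space face of the proximal membrane arm, and its gene lies on chromosome 4. The human mice had 55.9 CPM at the lowest, 88.4 at the median and 105.4 at the highest. The macaque mice had 45.8, 57.8 and 79.96 CPM. The ranges overlapped, with 8 of 12 human mice above every macaque mouse and 11 of 12 above the macaque median. Means were 86.6 ± 16.3 and 58.4 ± 9.9 CPM (SD, n = 12 each), with a log2 fold change of 0.58 (SE 0.10, edgeR adjusted p = 1.3e-04).

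Both N module genes that rose encode accessory subunits of the matrix arm. Ndufa12, on chromosome 10, had 71.6 CPM at the lowest, 96.9 at the median and 111.8 at the highest in human mice, and 47.7, 71.2 and 80.2 CPM in macaque mice. Of the human mice, 11 of 12 lay above every macaque mouse. The means of 95.5 ± 12.5 and 67.4 ± 9.8 CPM (SD, n = 12 each) gave a log2 fold change of 0.50 (SE 0.09, edgeR adjusted p = 2.0e-04). Ndufaf2, the assembly factor whose place Ndufa12 takes late in the building of the enzyme, had 46.9 and 46.8 CPM in the same groups.

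Ndufa7, on chromosome 17, showed the cleanest separation of the 5. Its level ran from 165.1 CPM over a median of 184.9 to 199.0 in human mice and from 114.3 over 150.3 to 162.4 in macaque mice. Every human mouse lay above every macaque mouse. Means were 184.1 ± 11.3 and 145.2 ± 16.9 CPM (SD, n = 12 each), a log2 fold change of 0.34 (SE 0.06, edgeR adjusted p = 1.7e-04).

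Ndufab1, on chromosome 7, encodes the mitochondrial acyl carrier protein, which also carries the growing chain in mitochondrial fatty acid synthesis. The human mice had 96.1 CPM at the lowest, 127.5 at the median and 142.1 at the highest, and the macaque mice 92.5, 101.5 and 110.1 CPM. In 10 of 12 human mice the level was above every macaque mouse. Means were 125.2 ± 14.9 and 100.8 ± 6.2 CPM (SD, n = 12 each), a log2 fold change of 0.32 (SE 0.06, edgeR adjusted p = 1.3e-03). Without batch F the adjusted p of Ndufab1 was 0.0805, and the other 4 genes kept their calls.

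**Figure D1:**
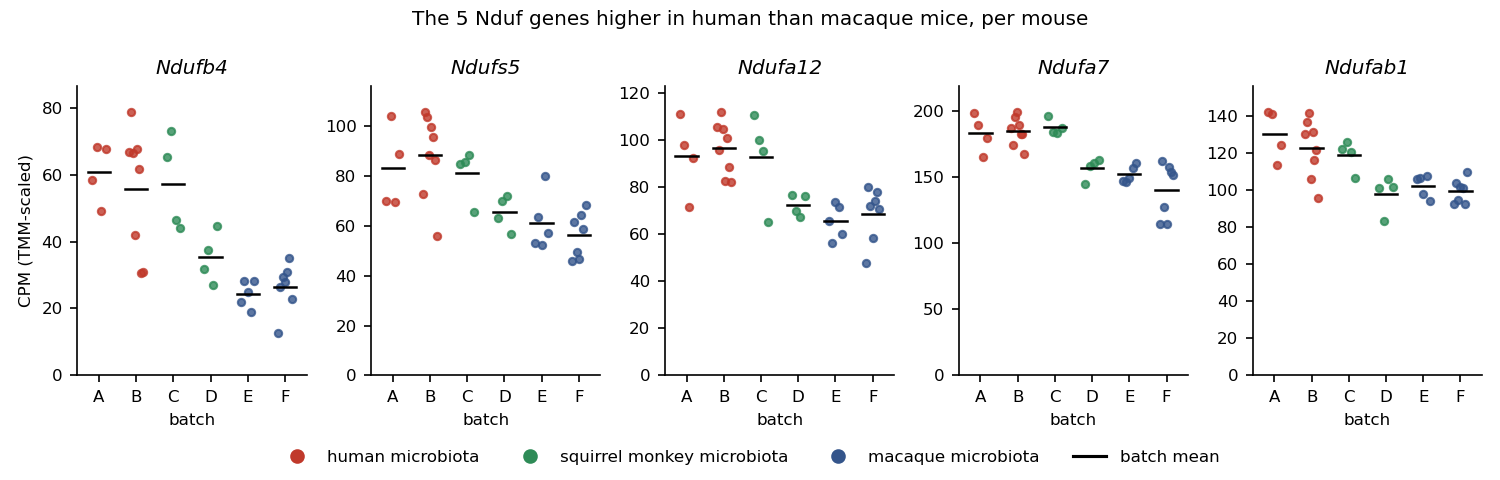
CPM of the 5 complex I genes that were higher in human than in macaque mice (vertical axis, TMM-scaled), one point per mouse, by batch (horizontal axis), with colours for the donor species and a black line at each batch mean. Batches A and B lie above E and F in all 5 genes; batch C lies near the human batches and batch D nearer to the macaque ones.

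The squirrel monkey group lay between the human and macaque groups in all 5 genes. Mean levels in its 8 mice were 46.2 ± 15.7 CPM for Ndufb4, 73.2 ± 11.7 for Ndufs5, 82.7 ± 17.1 for Ndufa12, 172.3 ± 17.9 for Ndufa7 and 108.5 ± 14.02 for Ndufab1 (SD, n = 8). Of 37 subunit genes, 1 was higher than in macaque mice, Ndufb4, against 0.387% of all genes higher and 0.64% called in either direction, and 0 of 8 Ndufaf genes were called. Ndufb4 ran from 27.1 over a median of 44.3 to 73.0 CPM in squirrel monkey mice, and 6 of 8 lay above every macaque mouse. Its log2 fold change was 0.84 (SE 0.18, edgeR adjusted p = 0.018). The call was lost in several alternatives. The edgeR adjusted p was 0.0635 without squirrel monkey replicate 1 and 0.0756 without replicate 2. It was 0.539 without batch C, where the log2 fold change was 0.45, 0.145 without batch E and 0.167 without batch F. In limma voom with batch as a random block, the log2 fold change was 0.79 (adjusted p = 0.0699). The next smallest adjusted p belonged to Ndufa7 (log2 fold change 0.25, SE 0.07, edgeR adjusted p = 0.0671). Both comparisons share the macaque mice, so the values are given side by side only.

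Between human and squirrel monkey mice 0 of 45 complex I genes passed edgeR's adjusted threshold, against 0.134% of all genes (0.0158% higher and 0.119% lower), and 6 had an unadjusted p under 0.05. DESeq2 and limma voom also called 0. The log2 fold changes of the 5 genes were 0.32 for Ndufb4, 0.25 for Ndufs5, 0.21 for Ndufa12, 0.10 for Ndufa7 and 0.21 for Ndufab1, with SE of 0.066 to 0.165. The smallest edgeR adjusted p among the members was 0.259.

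**Figure D2:**
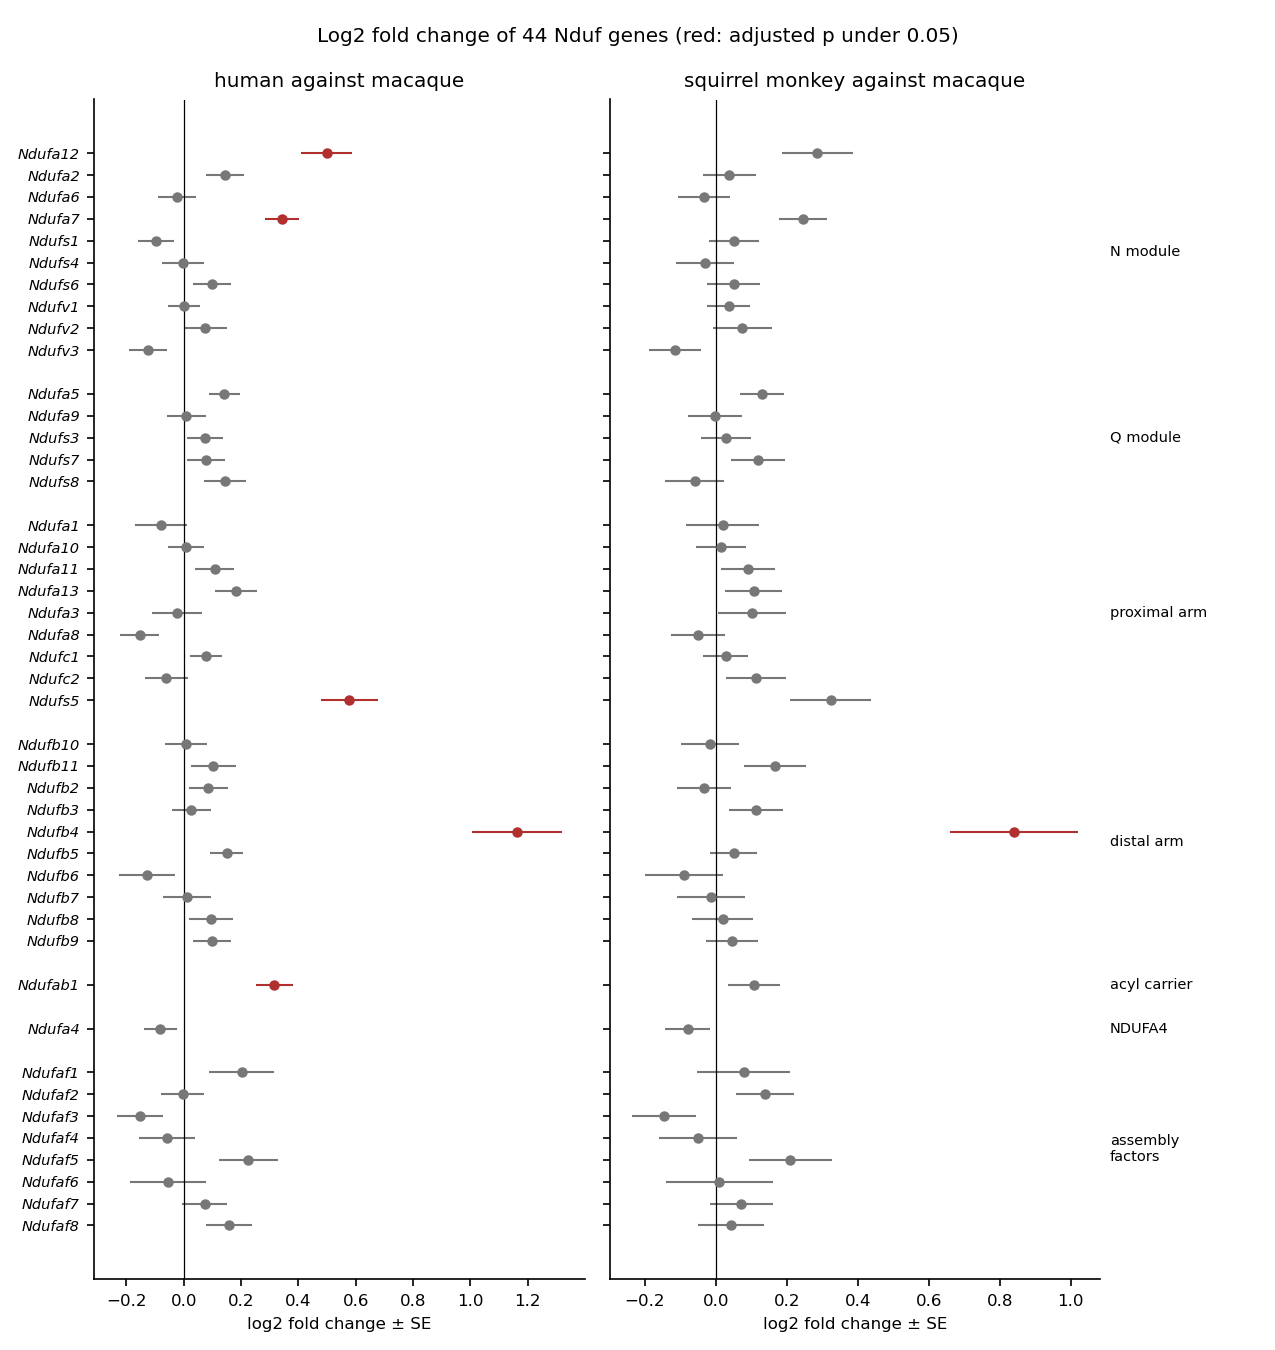
Log2 fold change with SE (horizontal axis) of 44 of the 45 tested complex I genes, grouped by their place in the enzyme (vertical axis), for human and for squirrel monkey against macaque mice; red marks an adjusted p under 0.05. In the left panel 5 genes stand to the right of the rest, which lie between -0.15 and 0.23, and in the right panel Ndufb4 alone is red.

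Differences of the remaining members between human and macaque mice were small. In the N module, 8 of 10 genes were not called. Among them Ndufv1, which carries the NADH-binding site and the flavin, had 286.4 CPM in human and 286.2 in macaque mice. Ndufs1, the largest iron-sulphur subunit, had 139.3 ± 13.8 CPM in human and 149.2 ± 16.3 in macaque mice (SD, n = 12 each). Ndufa2, an accessory subunit with a thioredoxin-like fold and the highest mean level of this module over all 32 mice, had 316.6 ± 42.6 and 286.2 ± 28.03 CPM (SD, n = 12 each), with a log2 fold change of 0.14 (SE 0.07, edgeR adjusted p = 0.176).

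The Q module gave 0 calls of 6 genes, and the log2 fold changes ran from 0.01 to 0.14. Ndufa5, an accessory subunit of this module, had the smallest p, with 331.0 CPM at the lowest, 389.3 at the median and 425.6 at the highest in human mice and 293.0, 356.7 and 380.0 in macaque mice. The ranges overlapped. Its log2 fold change was 0.14 (SE 0.05, edgeR adjusted p = 0.102). Among core subunits of the module, the log2 fold changes were 0.07 for Ndufs3, 0.08 for Ndufs7 and 0.14 for Ndufs8, of which Ndufs7 and Ndufs8 hold iron-sulphur clusters.

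In the membrane arm, 8 of 9 proximal and 9 of 10 distal genes were not called. Ndufa3, with the highest mean level among the proximal genes over all 32 mice (Ndufa13 was higher in the human group, at 490.7 CPM), had 453.0 ± 83.4 CPM in human and 460.5 ± 68.6 in macaque mice (SD, n = 12 each). This was a log2 fold change of -0.02 (SE 0.09, edgeR adjusted p = 0.908). Ndufb9, a distal subunit of the LYR protein family, had 437.1 ± 60.5 and 408.3 ± 44.9 CPM (SD, n = 12 each). This was a log2 fold change of 0.10 (SE 0.07, edgeR adjusted p = 0.387). Both differences were smaller than the spread between mice. Ndufa4, named as a complex I subunit but since assigned to complex IV, had the highest mean level of all 48 genes, 676.0 ± 58.7 CPM in human and 715.0 ± 56.7 in macaque mice (SD, n = 12 each). This was a log2 fold change of -0.08 (SE 0.06, edgeR adjusted p = 0.413).

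None of the 8 Ndufaf genes was called between any donor groups, and 1 had an unadjusted p under 0.05 between human and macaque mice. DESeq2 and limma voom called 0 too. That gene was Ndufaf5, which hydroxylates the core subunit Ndufs7 during assembly, with 38.8 ± 6.2 CPM in human and 33.1 ± 6.4 in macaque mice (SD, n = 12 each). This was a log2 fold change of 0.23 (SE 0.10, edgeR adjusted p = 0.174). Ndufaf3, which helps to assemble the Q module, had 90.9 ± 13.1 and 100.9 ± 16.7 CPM (SD, n = 12 each). This was a log2 fold change of -0.15 (SE 0.08, edgeR adjusted p = 0.247). Of 13 further assembly factors without the Ndufaf name, 0 were called, and the smallest p was that of Ecsit, with a log2 fold change of 0.23 (SE 0.08, edgeR adjusted p = 0.0633).

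Summed over genes, the members that rose are a small share of complex I transcripts. The 5 genes together had 548.7 ± 54.6 CPM in human, 483.0 ± 67.7 in squirrel monkey and 397.4 ± 36.7 in macaque mice (SD, n = 12, 8 and 12), a description of genes chosen for this difference. The 35 other subunit genes together had 8237 ± 889, 8192 ± 559 and 8019 ± 769 CPM. The 8 Ndufaf genes had 372.7 ± 25.6, 373.0 ± 16.6 and 369.5 ± 34.1 CPM. Between human and macaque mice, the sums of the other subunits and of the Ndufaf genes differed by less than 1 SD. The 5 genes had mean levels over all mice of 42.6 to 166.6 CPM (median 81.7), and the other 40 tested members 14.4 to 690.7 CPM (median 201.5).

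Batches of the same donor species were compared next, since no batch holds mice of more than 1 species. No complex I gene was called between batches B and A of the human group, against 0.0237% of all genes in edgeR, nor between D and C of the squirrel monkey group or F and E of the macaque group, against 0% of all genes in each. Unadjusted p-values were under 0.05 for 11, 5 and 1 of the 45 genes, and DESeq2 and limma voom called 0. The members nevertheless leaned in one direction within pairs of batches: 41 of 45 log2 fold changes were positive in B against A (median 0.15) and 35 of 45 negative in D against C (median -0.07), with 25 of 45 positive in F against E (median 0.01). Over all genes the medians were 0.001, -0.002 and 0.007.

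The 5 genes and the other members were also summarised apart, with no test between them. In B against A, the 40 other members had a median log2 fold change of 0.17, with 38 positive, and the 5 genes a median of 0.01. The other 35 subunit genes together had 7594 ± 659 CPM in batch A (SD, n = 4) and 8558 ± 837 in batch B (SD, n = 8), with ranges that overlapped. The means of the macaque batches, 7959 CPM in E and 8061 in F, lay between those of batches A and B. In D against C all 5 genes were lower, by 0.26 to 0.70 on the log2 scale, while the 40 others had a median of -0.05. In F against E the medians were -0.04 for the 5 genes, with 2 positive, and 0.01 for the 40 others, with 23 positive. Together the 5 genes had 468.7 to 579.6 CPM in batch C and 417.9 to 442.7 in batch D, so the ranges of these batches did not overlap. For Ndufb4 the difference between D and C was -0.70 (SE 0.25, edgeR adjusted p = 0.449), with batch means of 57.2 and 35.2 CPM. Batch C was thus within the range of the human batch means (60.8 in A and 55.5 in B), and batch D lay between them and the macaque batch means (24.5 in E and 26.4 in F).

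**Figure D3:**
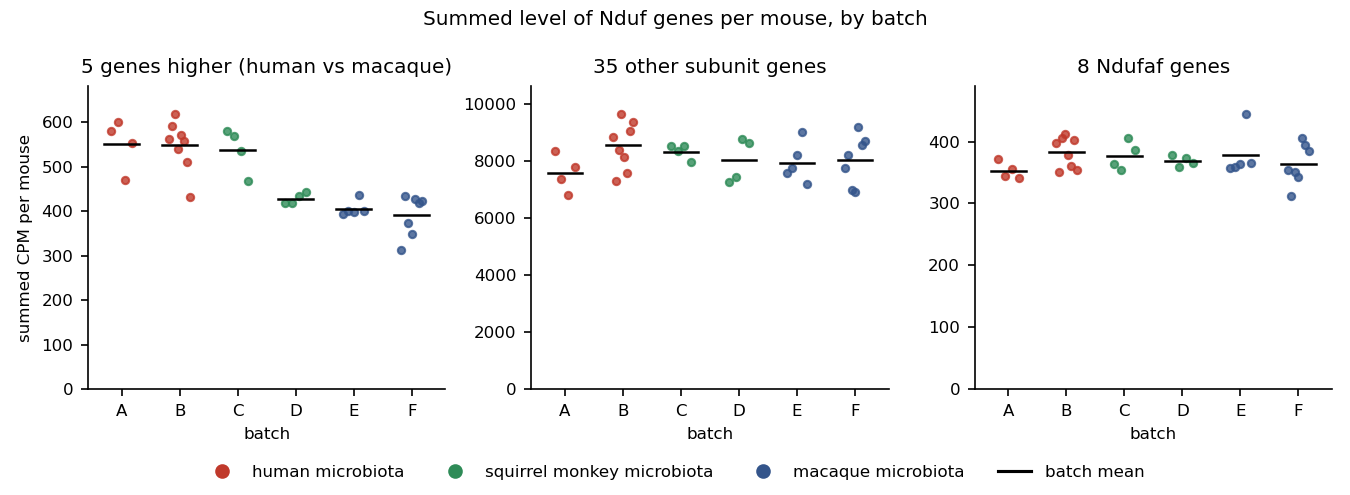
Summed CPM per mouse (vertical axes, starting at 0) of the 5 complex I genes higher in human than in macaque mice, the 35 other subunit genes and the 8 Ndufaf genes, by batch, with a line at each batch mean. The left panel steps down from batch C (537.9) to batch D (428.1), whereas the other panels show overlapping batches throughout.

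**Figure D4:**
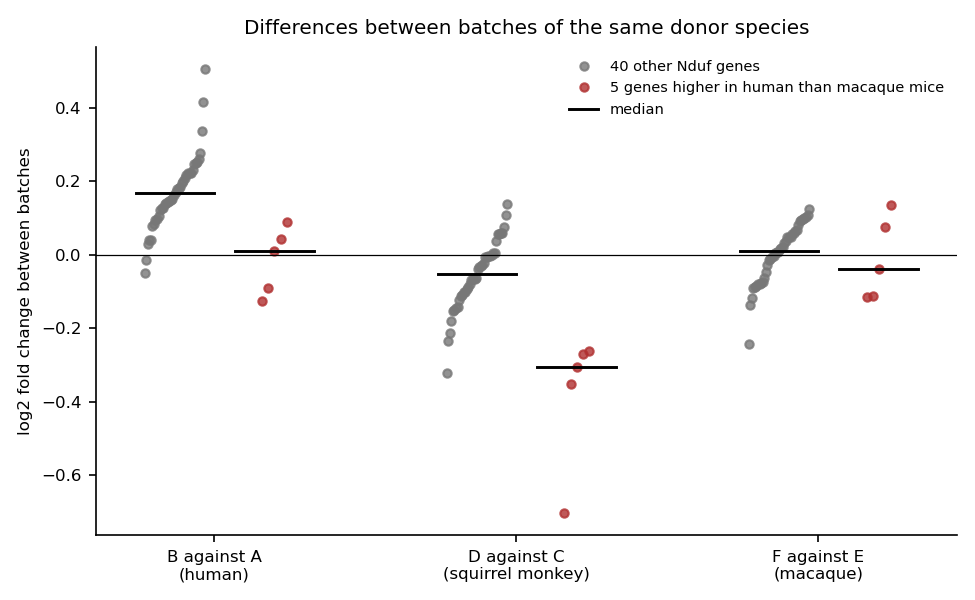
Log2 fold change of each tested complex I gene between the 2 batches of each donor species (vertical axis), with the 5 genes higher in human than in macaque mice in red, the 40 others in grey and lines at the medians. The grey points lie mostly above 0 in B against A, and all 5 red points lie below 0 in D against C.

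Transcript sequences were compared because several small complex I genes have processed pseudogenes, inserted copies of their mRNA, whose reads can be hard to place. In GENCODE M21 transcripts, 4 of the 5 genes that rose have an annotated copy elsewhere in the genome of at least 150 aligned bases at 99% identity or more, and 0 of the 40 other tested members have one. This limit was chosen after the values were seen. At 98% the counts were 4 of 5 and 1 of 40, with Ndufs3 just outside the limit (98.6% over 792 bases), and at 90% they were 5 of 5 and 10 of 40. The pairs below show 60 coding bases of each gene and of its copy, with bases that differ in capitals. Each is the aligned coding stretch of that length with the most mismatches, so the pairs of Ndufs5, Ndufa12 and Ndufa7 overstate the difference over the whole alignment. The pair of Ndufb4 has no mismatch, and its first coding stretch is shown. The pairs are printed to show how little separates the first 3 of them and how Ndufa7 differs from its closest copy, Gm15694. Over all 235 aligned bases that last pair has 14 mismatches and is 94.04% identical.
Ndufb4: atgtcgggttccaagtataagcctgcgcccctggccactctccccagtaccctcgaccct
Ndufb4c: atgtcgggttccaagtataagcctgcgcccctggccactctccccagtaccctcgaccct
Ndufs5: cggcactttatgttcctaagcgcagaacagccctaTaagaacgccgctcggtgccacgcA
BC002163: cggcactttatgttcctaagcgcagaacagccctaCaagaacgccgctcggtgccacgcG
Ndufa12: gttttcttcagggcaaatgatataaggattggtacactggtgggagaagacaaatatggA
Gm15920: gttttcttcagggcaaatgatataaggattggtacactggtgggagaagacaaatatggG
Ndufa7: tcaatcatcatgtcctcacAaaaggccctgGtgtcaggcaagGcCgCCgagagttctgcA
Gm15694: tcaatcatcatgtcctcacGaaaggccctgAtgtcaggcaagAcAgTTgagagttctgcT

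Ndufb4 and its copy Ndufb4c are identical over all 390 aligned bases. Every stretch of 100 bases there matches without a mismatch, as do 72.9% of such stretches for Ndufab1 and Gm4459, 59.1% for Ndufa12 and Gm15920, 52.3% for Ndufs5 and BC002163 and 0% for Ndufa7. Among members not called, the share was 27.1% for Ndufs3 and Gm12251, and 0% for Ndufa11, Ndufb2, Ndufb3 and Ndufa4. The annotated copies of Ndufb4, Ndufab1, Ndufs5 and Ndufa12 end with the aligned stretch. The annotated transcript aligned for each member runs on for 487 bases in Ndufb4, 919 in Ndufab1, 114 in Ndufs5 and 87 in Ndufa12. Other transcripts of these genes were not measured for this. The position of the reads within a transcript is not in a count table. The rows of the copies held almost no counts over the 32 mice, 12 for Gm15920, 8 for BC002163 and 1 for Ndufab1-ps, another copy of Ndufab1. Ndufb4c and Gm4459 had no row in the count table.

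The same count was made over all tested genes. Of 593 tested genes with such a copy, 13.7% were higher and 2.7% lower in human than in macaque mice, and of 12051 without one, 4.02% were higher and 3.59% lower. Among 38 tested genes of complexes II to V, 3 of 5 with a copy were higher, Atp5g1, Atp5g2 and Atp5l, and 3 of 33 without one, Uqcrq, Cox6c and Atp5o. How the authors treated reads that match several places is not stated in any source used here, and the part of copies in the differences was not tested. Genes on the opposite strand overlap 1 of the 5 genes, Ndufab1, and 16 of the 40 others; whether counting used the strand is likewise not stated.

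**Figure D5:**
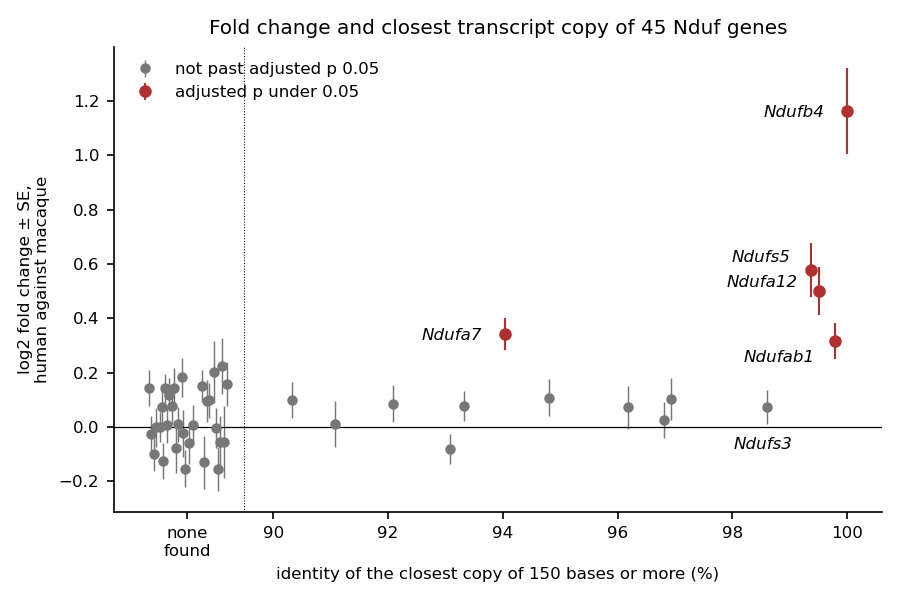
Log2 fold change with SE between human and macaque mice (vertical axis) against the identity of the closest transcript copy of 150 bases or more (horizontal axis, percent) for the 45 tested complex I genes. Red points mark an adjusted p under 0.05; Ndufb4, Ndufs5, Ndufa12 and Ndufab1 lie at over 99%, Ndufa7 at 94.04%, and members with no copy found are drawn at the left.

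The promoters of complex I genes are known targets of NRF1, a regulator of nuclear genes for mitochondria. RefSeq promoter sequences of build GRCm38.p6 matched 40 of the 45 tested members. The motif of NRF1 (GCGC, then any base, then TGCGC), searched on both strands, was found in the 250 bases before the start of 2 of the 5 genes that rose, of 5 of the 35 others and of 4.23% of 27025 genes. The motifs CCGGAAGT of GABPA and AAGATGGC of YY1, searched likewise, matched 0 of 40 members, against 3.23% and 1.83% of all genes. Only exact matches before the start were counted, and at shares this low 0 of 40 says little about the members. The 100 bases before the start are shown for both genes with a match, Ndufb4 (chr16:37654369-37654468, minus strand) and Ndufs5 (chr4:123718187-123718286, minus strand), with the motif in capitals. A match describes the letters and does not show that the factor binds.
Ndufb4 promoter: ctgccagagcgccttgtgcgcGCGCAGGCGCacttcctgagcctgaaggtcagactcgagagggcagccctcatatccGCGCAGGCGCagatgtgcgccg
Ndufs5 promoter: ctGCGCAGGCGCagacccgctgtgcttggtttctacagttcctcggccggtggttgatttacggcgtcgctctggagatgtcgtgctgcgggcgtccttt

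Nrf1 itself had 26.8 ± 3.8 CPM in human and 21.7 ± 3.8 in macaque mice (SD, n = 12 each). This was a log2 fold change of 0.29 (SE 0.10, edgeR adjusted p = 0.0692), and 0 of 10 regulators of mitochondrial biogenesis were called. Of 10 genes that follow mitochondrial mass, 0 were called, and Vdac1, the outer-membrane channel with the smallest p, had a log2 fold change of -0.11 (SE 0.06, edgeR adjusted p = 0.253). In the rest of the respiratory chain, 0 of 4 complex II genes, 1 of 9 complex III genes, 1 of 10 complex IV genes and 4 of 15 complex V genes rose between macaque and human mice, and 0 fell. Their log2 fold changes were 0.21 for Uqcrq, 0.40 for Cox6c, 0.78 for Atp5g2, 0.71 for Atp5l, 0.56 for Atp5g1 and 0.20 for Atp5o. These lists were written with earlier results of the same mice known. Beside these counts, 4.47% of all genes tested were higher and 3.54% lower. The median log2 fold changes over these lists were 0.013, 0.022, -0.00037 and 0.047 for complexes II to V in that order.

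Markers of other cells were read beside these results. Of 9 oligodendrocyte and myelin markers, 3 rose in human against macaque mice (Cldn11, Mal and Mog). Their summed level ran from 766 to 10397 CPM in human, 881 to 5377 in squirrel monkey and 656 to 3652 in macaque mice, and none of the 9 was at 0 in any mouse. With this level as a covariate, added after the data were seen, the same 5 complex I genes were called in human against macaque mice, while Ndufb4 in squirrel monkey against macaque mice had an adjusted p of 0.0505. Of 10 neuron markers, Slc17a7 rose and Tubb3, Syt1 and Nefm fell, with sums of 6392 ± 500 CPM in human and 6810 ± 589 in macaque mice (SD, n = 12 each); the part of this in the results was not tested. Of 6 meningeal fibroblast markers, 5 were tested and Igf2 rose, in human (log2 fold change 0.99, edgeR adjusted p = 0.0273) and in squirrel monkey mice (1.47, edgeR adjusted p = 0.0132) against macaque mice. The summed level of the 6 ran from 45.1 to 204.1 CPM in human, 63.8 to 159.3 in squirrel monkey and 48.0 to 218.2 in macaque mice. Of 6 endothelial markers, Ly6c1 rose in human against macaque mice (log2 fold change 0.40, edgeR adjusted p = 0.0425), with sums of 169.4 to 272.1, 177.7 to 258.5 and 175.3 to 285.6 CPM in human, squirrel monkey and macaque mice. Of 7 astrocyte, 4 oligodendrocyte precursor and 8 microglia markers, 0 were called between any donor groups. The 4 tested red blood cell markers gave 0 calls too. Their median log2 fold change was 0.44 in human and 0.76 in squirrel monkey against macaque mice. The part of the meningeal fibroblast, endothelial and these further lists in the results was not tested either. In bulk tissue, fewer cells of a type and less RNA per cell cannot be told apart. With the library total as a covariate, also added later, the same 5 genes were called.

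Spread between mice of a group was also read for the members. The median biological coefficient of variation, the spread between mice beyond counting error, was 0.107 over the 45 members and 0.122 over all 12651 genes. The genes were not matched to the members by level, so these values do not compare spread at like levels.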

How the data were processed

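Frontal cortex RNA of 32 mice was sequenced by TagSeq with single 100-base reads on a NovaSeq, per the labels' protocols. The authors deposited raw counts per Ensembl gene. GRCm39 is named in the submitters' processing notes, while no source used here gives the aligner, the counter or the handling of strand and multiple matches. Of the table's columns, 3 matched no sample and were not used. Rows without a symbol (76) held 0.031% of counts.

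These were tested in R 4.3.3 with edgeR 4.0.16: filterByExpr (minimum count 10, minimum total 15), TMM factors (0.955 to 1.04), the quasi-likelihood test with donor species as the only term, and Benjamini-Hochberg adjustment over 12651 genes at 0.05. A second fit used the 6 batches. No 2 of the 160 pairs of mice of a donor species had identical counts (chi-square per degree of freedom 1.46 to 7.93). At the median total, 5 CPM is about 7.67 counts. Copies were found with blastn 2.17.0+, same strand, among GENCODE M21 transcripts. The tests were tried on simulated counts, drawn independently for each mouse without differences between batches. That trial therefore cannot speak to batches that lie within donor groups. Alternatives were DESeq2 1.42.0, limma 3.58.1, other scalings and filters, and leaving out mice or batches. Fully described members are those called in any comparison and, per structural group, those of highest mean level and smallest p. Members, lists and structural groups were chosen with earlier results of these data known. The values of 1 member are not reported here.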

Additional observations from a re-analysis of the deposited data

Results flagged for a closer look

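Of 77 sets of values examined for a mouse far from the others, 3 held one by Dixon's criterion, and chance alone marks about 1 in 20 sets. The sets were each of the 45 tested members and the sums of subunit and Ndufaf genes in the 8 squirrel monkey mice, and the 5 genes that rose in each batch. The human and macaque groups of 12 mice were examined only by batch and only for these 5 genes. Ndufaf7, an assembly factor, was at 75.86 CPM in squirrel monkey replicate 5, against 54.77 to 63.44 in the other 7 mice. The same mouse had the lowest level of Ndufc2, a subunit of the proximal membrane arm, at 145.06 CPM, against 168.39 to 189.1 in the others. Ndufs5 was at 65.39 CPM in squirrel monkey replicate 4, against 84.77 to 88.24 in the other 3 mice of batch C. None of these mice was left out.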

How the results depend on the processing

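The 5 members that rose in human against macaque mice were the same 5 without each of the 32 mice in turn and under all other alternatives except library totals without further scaling, where 8 were called (Ndufa13, Ndufa5 and Ndufb5 were added), the analysis without batch B, where Ndufb6 was lower as a sixth call, and the analysis without batch F, where 4 remained. Under library totals the split over all genes moved from 565 higher and 448 lower to 673 and 321, and the median of all genes shifted by 0.024. The squirrel monkey against macaque count of 1 became 2 under library totals, DESeq2, limma voom with sample weights and without batch D, and 0 in limma voom with batch as a random block (consensus correlation 0.005), with the myelin covariate and without batches C, E or F. It ran from 0 to 2 without single mice: replicates 1 and 2 of the squirrel monkey group each ended the call of Ndufb4, and Ndufa7 was added without replicate 5. Tested for any difference among donors, 5 of 45 members were called, against 6.15% of all genes, 3 with counts summed per batch and 2 without batch F. Comparisons of human with squirrel monkey mice and between batches, and those of the Ndufaf genes, gave 0 under all alternatives run. The donor groups were made up of different mice and the labels pair none of them, so no paired analysis was possible. Replicate numbers of mice, which the labels do not give, follow the order of the samples within each donor group. Among the 5 members that rose, Ndufb4 had the fewest counts, 13 to 50 per macaque mouse.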
